A study of Homo sapiens with 6 samples.

Results

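Exon junction factors, the nuclear cap-binding proteins and the core factors of nonsense-mediated decay were examined as a group of 10 genes: EIF4A3, RBM8A, MAGOH, MAGOHB, CASC3, NCBP1, NCBP2, UPF1, UPF2 and UPF3B. These proteins accompany mRNAs in cytoplasmic granules of the RNA-binding protein IMP1. Every probe set, the array's unit of measurement for a transcript, whose platform annotation gave 1 of these symbols and no other was taken as a member. The rule found 16 of 54613 probe sets, which stood for 7 genes out of 19775 with such a probe set. RBM8A had 6 probe sets, MAGOHB, NCBP1, NCBP2 and UPF1 had 2 each, and EIF4A3 and UPF2 had 1 each. MAGOH and CASC3 were read only by probe sets annotated with a second symbol, 3 in all, which are described separately and kept out of the counts. No probe set was matched to UPF3B in the annotation used here.

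The cells were a human kidney line, and their total RNA was read on 6 one-colour oligonucleotide arrays, 2 for each of 3 groups. The groups received the construct hIMP1 Dmut, the construct hIMP1 wt, or an empty vector (mock) by transfection. The array titles carry the number 1 or 2, and each group holds 1 array of each number. The labels name neither the cell line nor the change behind Dmut, and they give no promoter, no time after transfection and no clone.

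The exon junction complex is a mark that the spliceosome leaves on an mRNA just upstream of a spliced junction. Its core is the helicase EIF4A3 clamped on the RNA by the RBM8A (Y14) and MAGOH pair, with CASC3 as a further core subunit. NCBP1 and NCBP2 bind the cap of a new mRNA until the translation factor EIF4E takes their place, so that both sets of proteins mark mRNAs that have been translated little or not at all. A complex that remains downstream of a terminating ribosome recruits UPF3B, UPF2 and the helicase UPF1, and the mRNA is degraded.

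The 6 arrays had median intensities of 26.7 to 33.7 and the same trimmed mean. Across the 27307 probe sets tested, arrays of the same number correlated at 0.970 to 0.980. Arrays of the same group correlated at 0.963 to 0.964, and arrays sharing neither at 0.960 to 0.968. By these correlations the number separated the arrays, and the construct did not. The labels do not say whether the replicates were separate cultures. What the p-values measure is thus the spread among the arrays alone, possibly a technical one, and precision is limited by how few arrays there are. IGF2BP1, the gene of IMP1, averaged 277 on the hIMP1 Dmut arrays, 276 on the hIMP1 wt arrays and 269 on the mock arrays with its brighter probe set. Its other probe set above the filter, 223689_at, averaged 199, 195 and 141 in the same order. It differed from mock by 0.51 ± 0.39 for hIMP1 Dmut and by 0.46 ± 0.39 for hIMP1 wt, above mock in both pairs of equal number. Neither probe set was called in a comparison of constructs, and they give no check of the transfection. Of 10 markers of renal epithelium and kidney lineage, 7 passed the filter on low values, among them KRT18 at 1149 to 1356 and PAX8 at 148 to 287, while CDH16 read 1.54 to 8.02. The summed level of that list was 2212 to 2326 on the hIMP1 Dmut arrays, 2206 to 2429 on the hIMP1 wt arrays and 2165 to 2329.65 on the mock arrays. Summed levels of the blood, endothelial and fibroblast lists lay between 24.7 and 239 on all arrays, but only 3 or 4 genes of each were read. KRT18 was the largest part of the kidney sum, so these sums are not on a like footing. CD14 and CDH5 read 0.551 to 5.2. COL1A1 (87.2 to 166), HBB (34.9 to 86.9), CD3E (6.3 to 57.1) and PECAM1 (7.5 to 60.9) passed the filter, while PAX2 and LHX1 did not.

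Promoter sequences are shown for the members on which the results turn, and for HSPA6, an inducible heat shock chaperone and the only gene called in a comparison of constructs. Each runs from 250 bases before to 50 bases after the annotated start, 5′ to 3′ on the gene's strand, from RefSeq on GRCh38.p14. HSPA6 lies at chr1:161524290-161524589 on the plus strand, EIF4A3 at chr17:80147079-80147378 on the minus strand, NCBP2 at chr3:196942479-196942778 on the minus strand and UPF1 at chr19:18831709-18832008 on the plus strand. Capitals mark matches to the heat shock pair GAANNTTC, to the CCAAT box (CCAAT) and to the ETS core (CCGGAA), searched on both strands. No marked match overlaps another.
HSPA6: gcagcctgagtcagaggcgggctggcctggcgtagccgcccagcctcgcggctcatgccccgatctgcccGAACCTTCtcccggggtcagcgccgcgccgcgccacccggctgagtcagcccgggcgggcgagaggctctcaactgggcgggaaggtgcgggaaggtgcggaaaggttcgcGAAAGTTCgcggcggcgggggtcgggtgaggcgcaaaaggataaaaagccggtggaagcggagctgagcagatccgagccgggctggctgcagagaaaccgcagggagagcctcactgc
EIF4A3: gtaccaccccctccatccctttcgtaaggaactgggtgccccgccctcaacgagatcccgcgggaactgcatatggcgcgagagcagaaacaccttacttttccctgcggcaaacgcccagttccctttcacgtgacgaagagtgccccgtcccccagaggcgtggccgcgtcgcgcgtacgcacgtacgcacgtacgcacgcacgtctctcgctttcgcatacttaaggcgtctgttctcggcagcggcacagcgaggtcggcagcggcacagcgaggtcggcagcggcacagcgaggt
NCBP2: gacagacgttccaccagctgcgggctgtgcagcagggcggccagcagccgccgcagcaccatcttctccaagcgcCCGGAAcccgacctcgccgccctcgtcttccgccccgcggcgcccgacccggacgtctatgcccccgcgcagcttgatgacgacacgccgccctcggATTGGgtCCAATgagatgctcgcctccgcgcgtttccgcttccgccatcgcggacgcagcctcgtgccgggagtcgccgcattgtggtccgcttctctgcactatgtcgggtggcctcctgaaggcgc
UPF1: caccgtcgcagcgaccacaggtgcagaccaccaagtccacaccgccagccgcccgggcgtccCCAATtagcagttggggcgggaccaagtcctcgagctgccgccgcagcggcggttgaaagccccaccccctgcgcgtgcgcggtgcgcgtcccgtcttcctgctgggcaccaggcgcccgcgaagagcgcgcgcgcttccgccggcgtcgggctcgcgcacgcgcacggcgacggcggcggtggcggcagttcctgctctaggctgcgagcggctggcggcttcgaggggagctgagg

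The HSPA6 promoter holds the heat shock pair 2 times, and 0 of the 9 promoters found for 8 of the members hold it, against 6.77% of all 35116 promoters in the table. The CCAAT box was in 5 of the 9 member promoters (34.6% of all), the GC box GGGCGG in 8 of 9 (45% of all) and the ETS core in 4 of 9 (17.2% of all). NCBP2 has 2 CCAAT boxes, 4 GC boxes and 1 ETS core, while EIF4A3 has 1 GC box and neither of the others. A match is a run of letters in this window and was not tested as a binding site.

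All 16 member probe sets passed the filter on low values, so each entered the tests in every comparison. Over the 6 arrays, the highest intensity of a member exceeded its lowest by 1.17-fold for EIF4A3 and by up to 2.64-fold for an RBM8A probe set. Changes are given as differences of log2(intensity + 9.048) with their standard errors. The added constant makes changes of dim probe sets smaller.

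**Figure D1:**
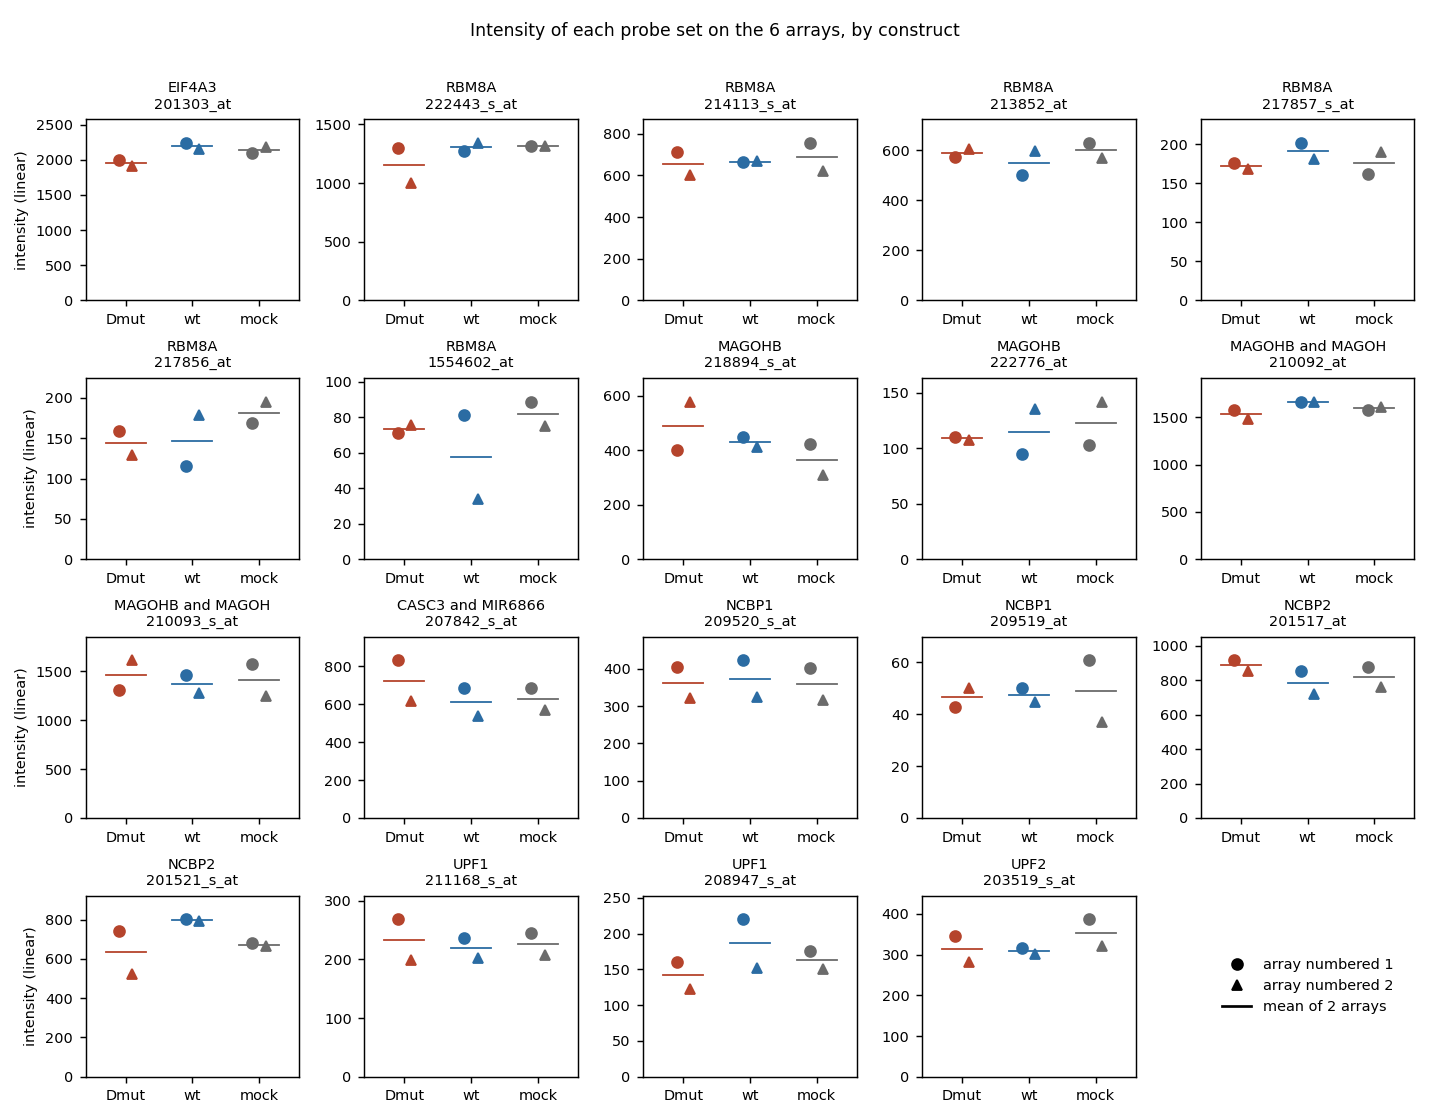
Intensity (linear scale, from 0) of each member probe set and of the 3 probe sets with a second symbol on the 6 arrays, with hIMP1 Dmut, hIMP1 wt and mock from left to right, circles for arrays numbered 1, triangles for arrays numbered 2 and a line at the mean of 2 arrays. EIF4A3 lies lower on both hIMP1 Dmut arrays than on the other 4, and for NCBP1 209520_s_at the triangles lie below the circles in every group.

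EIF4A3, the helicase that grips the RNA in the exon junction core, was the most tightly measured member. Its probe set (201303_at) read 1999 and 1918 on the hIMP1 Dmut arrays, 2239.8 and 2151 on the hIMP1 wt arrays, and 2091 and 2181 on the mock arrays. Both hIMP1 Dmut values lay below the other 4, whereas the hIMP1 wt and mock values overlapped. In RNA of a whole culture, fewer cells with a transcript and less of it per cell cannot be told apart. The group means were 1958 ± 56.8 for hIMP1 Dmut, 2195 ± 63.1 for hIMP1 wt and 2136 ± 63.5 for mock (SD, n = 2). The difference of hIMP1 Dmut from hIMP1 wt was -0.16 ± 0.16 on the log2 scale, or 0.893-fold, with a 95% interval of 0.70- to 1.14-fold. It had the same size in both pairs of equal number, at -0.16. Against mock, hIMP1 Dmut differed by -0.12 ± 0.16 and hIMP1 wt by 0.04 ± 0.16. None of these passed the threshold with limma, where the adjusted p was 0.9999 for hIMP1 Dmut against hIMP1 wt.

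RBM8A, also called Y14, is the subunit that pairs with MAGOH. All 6 of its probe sets were lower on the hIMP1 Dmut arrays than on the mock arrays by the fitted mean, by differences of -0.32 to -0.02, and all 6 were also lower under quantile and median scaling. The probe set 222443_s_at read 1296 and 1004 with hIMP1 Dmut, 1274 and 1343 with hIMP1 wt, and 1314 and 1315 with mock. Only the hIMP1 Dmut array numbered 2 stood well below the others, although both hIMP1 Dmut values lay under both mock values. The change against mock was -0.20 ± 0.18, made up of -0.02 between the arrays numbered 1 and -0.39 between those numbered 2. The probe set 217856_at read 158 and 129.58 with hIMP1 Dmut, 116 and 178 with hIMP1 wt, and 168 and 195 with mock. Here too the hIMP1 Dmut values lay below the mock values, with a change of -0.32 ± 0.27, while the hIMP1 wt values spanned the hIMP1 Dmut ones. Of the other probe sets, 217857_s_at was lower on both hIMP1 Dmut arrays (176 and 169) than on both hIMP1 wt arrays (202 and 181), by -0.14 ± 0.22, and overlapped with mock (161 and 190).

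The hIMP1 wt arrays against mock gave lower RBM8A values in 5 of 6 probe sets, from -0.54 to 0.12 over all 6, and in 3 of 6 after scaling to equal medians. The lowest of these differences rested on a single array. The probe set 1554602_at read 81.5 and 33.7 with hIMP1 wt, against 88.9 and 75.1 with mock, and its change of -0.54 ± 0.37 was -0.11 between the arrays numbered 1 and -0.98 between those numbered 2. Probe sets of RBM8A did not move together across the 6 arrays: their pairwise correlations ran from -0.91 to 0.61 over 15 pairs, with a median of -0.12. The remaining probe sets, 213852_at and 214113_s_at, overlapped between groups in every comparison of constructs, with differences of -0.13 to 0.11. No RBM8A probe set passed the limma threshold in a comparison of constructs.

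MAGOHB, a near copy of MAGOH that can take its place in the core, had the largest member difference of hIMP1 Dmut from mock. Its probe set 218894_s_at read 399.7 and 578 with hIMP1 Dmut, 447 and 409.5 with hIMP1 wt, and 422 and 308 with mock. The groups overlapped, since the lower hIMP1 Dmut value lay under the higher mock value. The difference was 0.41 ± 0.24, or 1.32-fold, and the pairs of equal number differed, with -0.08 between the arrays numbered 1 and 0.89 between those numbered 2. The second probe set, 222776_at, read 109.96 and 107.8 with hIMP1 Dmut against 103 and 142 with mock and differed by -0.14 ± 0.28. The correlation between these probe sets over the 6 arrays was -0.62.

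Of the probe sets that also carry MAGOH's symbol, 210092_at read 1577 and 1487 with hIMP1 Dmut, 1658 and 1665 with hIMP1 wt, and 1575 and 1612 with mock. Both hIMP1 wt values were the highest, 0.06 ± 0.16 above mock. The other, 210093_s_at, read 1312 and 1609 with hIMP1 Dmut, 1457 and 1274 with hIMP1 wt, and 1577 and 1249 with mock. Its groups overlapped in every comparison of constructs. MAGOH and MAGOHB cannot be told apart in either.

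CASC3, the core subunit also known as MLN51 or Barentsz, was read by a probe set annotated with CASC3 and MIR6866 (207842_s_at), whose source sequence is the CASC3 mRNA in RefSeq. It read 829.7 and 618 with hIMP1 Dmut, 687 and 536 with hIMP1 wt, and 685 and 567 with mock. The higher value of each group was on the array numbered 1. The construct differences were 0.20 ± 0.22 for hIMP1 Dmut against mock, -0.04 ± 0.22 for hIMP1 wt against mock and 0.24 ± 0.22 for hIMP1 Dmut against hIMP1 wt.

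NCBP2 (CBP20) is the subunit of the nuclear cap-binding complex that holds the cap. Its 2 probe sets differed in the direction of the hIMP1 Dmut arrays relative to the hIMP1 wt arrays. The probe set 201521_s_at read 743 and 524 with hIMP1 Dmut, 802 and 790.4 with hIMP1 wt, and 681 and 664 with mock. Both hIMP1 wt values were the highest of the 6. The difference of hIMP1 wt from mock was 0.24 ± 0.20, with 0.23 and 0.25 in the pairs numbered 1 and 2, and that of hIMP1 Dmut from hIMP1 wt was -0.35 ± 0.20, with -0.11 and -0.58 in those pairs. The difference of hIMP1 Dmut from hIMP1 wt had the smallest unadjusted p of any member among constructs, 0.118. The probe set 201517_at read 914 and 855 with hIMP1 Dmut, 852 and 719 with hIMP1 wt, and 874 and 757 with mock. Here hIMP1 Dmut exceeded hIMP1 wt in both pairs, by 0.17 ± 0.18, and mock overlapped with both. The correlation between the NCBP2 probe sets over the 6 arrays was -0.19.

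NCBP1 (CBP80) is the larger subunit, through which the cap-binding complex meets UPF1. Its brighter probe set, 209520_s_at, gave nearly equal group means of 363 ± 59.3 with hIMP1 Dmut, 373 ± 69.6 with hIMP1 wt and 360.1 ± 60.4 with mock (SD, n = 2). The fitted differences between constructs were -0.04 to 0.05, with a standard error of 0.23. Within each group the values differed by array number: 321, 324 and 317 on the arrays numbered 2, against 405, 423 and 403 on the arrays numbered 1, for hIMP1 Dmut, hIMP1 wt and mock. The second probe set, 209519_at, ran from 37.1 to 60.8 over all 6 arrays with overlapping groups.

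UPF1, the helicase at the centre of nonsense decay, overlapped between groups in all comparisons of constructs. The probe set 211168_s_at read 268 and 198 with hIMP1 Dmut, 236 and 202 with hIMP1 wt, and 244 and 208 with mock, and the 3 differences lay between -0.04 and 0.07. The probe set 208947_s_at read 161 and 122 with hIMP1 Dmut, 220.1 and 153 with hIMP1 wt, and 175 and 151 with mock. Its hIMP1 Dmut arrays differed from the hIMP1 wt arrays by -0.36 ± 0.26, with -0.43 and -0.30 in the pairs numbered 1 and 2. In both probe sets the higher value of every group was on the array numbered 1.

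UPF2, the adaptor between UPF1 and UPF3B, read 345 and 282 with hIMP1 Dmut, 316 and 301 with hIMP1 wt, and 387 and 321 with mock (203519_s_at). Both hIMP1 wt values lay under both mock values, by -0.19 ± 0.21, with -0.28 and -0.09 in the pairs numbered 1 and 2. The hIMP1 Dmut arrays overlapped with both other groups and differed from mock by -0.17 ± 0.21.

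**Figure D2:**
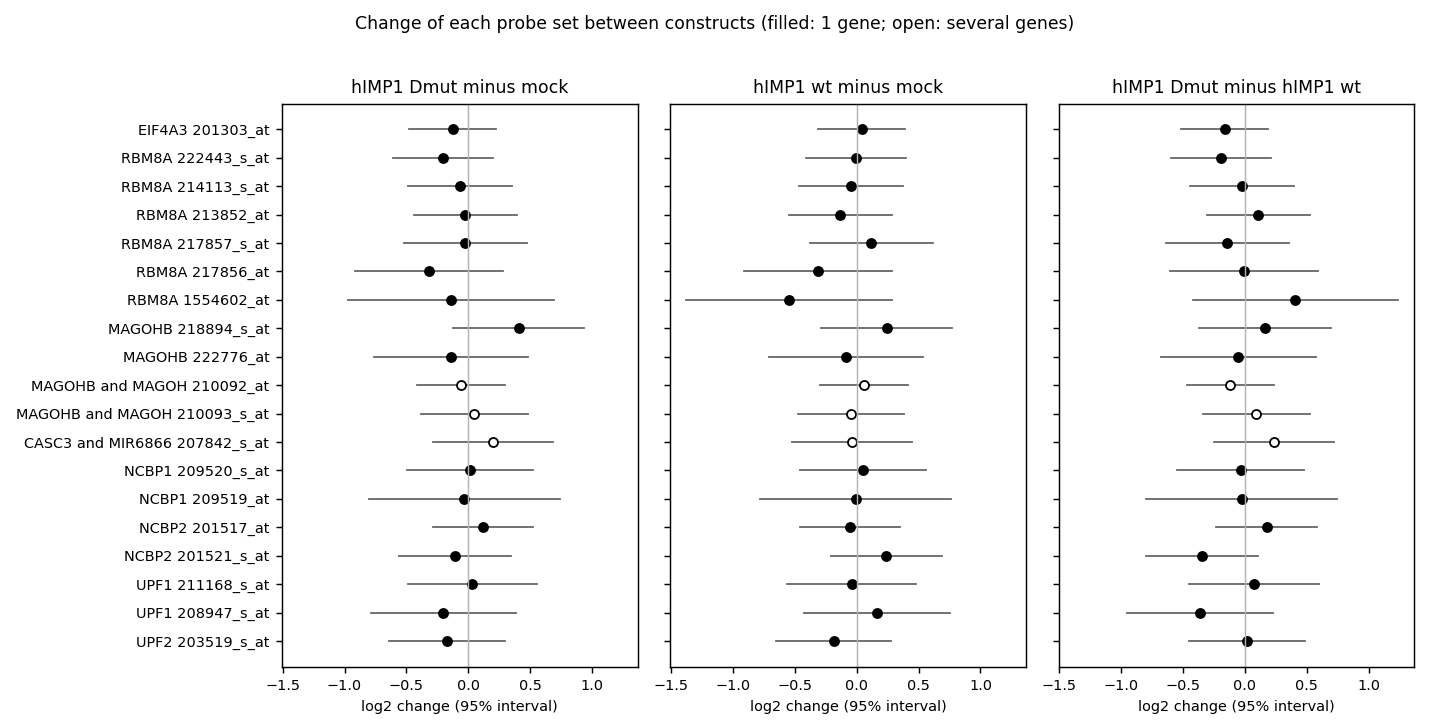
Log2 change of each member probe set (filled) and of the probe sets with a second symbol (open) in the 3 comparisons of constructs, as points with 95% intervals. Every interval of the filled points includes 0. The narrowest belongs to EIF4A3 and the widest to RBM8A 1554602_at.

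Between constructs, no member passed the test. With limma at an adjusted p under 0.05, 0 of 16 member probe sets were called for hIMP1 Dmut against mock, where 0.00732% of the 27307 probe sets tested were called. The same held for hIMP1 wt against mock, with 0 of 16 and 0.00732%, and for hIMP1 Dmut against hIMP1 wt, with 0 of 16 and 0%. The only calls were 2 probe sets of HSPA6, in the comparisons with mock, which share the mock arrays. HSPA6 probe set 117_at read 582 and 535 with hIMP1 Dmut, 355 and 229 with hIMP1 wt, and 13.6 and 2.57 with mock. Its change was 5.13 ± 0.35 for hIMP1 Dmut against mock (limma, adjusted p = 0.00102) and 4.18 ± 0.35 for hIMP1 wt against mock (limma, adjusted p = 0.0071). The mock values lie around the added constant of 9.048, which sets the size of these differences. With the 10th percentile or the median as the constant they were 5.95 or 3.94 for hIMP1 Dmut and 4.99 or 3.04 for hIMP1 wt, all called. Leaving out an hIMP1 Dmut array ended both calls: the change of 117_at against mock was then 5.07 or 5.19 with hIMP1 Dmut (limma, adjusted p = 0.185 and 0.159) and 4.18 with hIMP1 wt (limma, adjusted p = 0.171 and 0.174).

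At an unadjusted p under 0.05, 0 of 16 members were found in each comparison, against 1.42% of all probe sets for hIMP1 Dmut against mock, 1.03% for hIMP1 wt against mock and 1.23% for hIMP1 Dmut against hIMP1 wt. With the array number as a block, 1 of 16 members was found for hIMP1 Dmut against hIMP1 wt and 0 for each construct against mock. Over all probe sets the block gave 1134, 705 and 870 in the order above, against 387, 281 and 337 without it. The lowest adjusted p of a member without the block was 0.99998, 0.99995 and 0.9999 in those comparisons by limma. These p-values do not show that the levels were equal. The 95% intervals, from the fit without the block, bound the differences instead. Their median half-width was 0.50 on the log2 scale, and all 16 lay within a log2 change of 1 in either direction for hIMP1 Dmut against mock, as did 15 of 16 in the other comparisons. The exception was RBM8A 1554602_at in both, where the interval reached down to 0.385-fold for hIMP1 wt against mock and up to 2.36-fold for hIMP1 Dmut against hIMP1 wt. EIF4A3 was bounded most closely, at 0.72- to 1.17-fold for hIMP1 Dmut against mock.

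Counts of members whose groups of arrays did not overlap were close to the share of all probe sets. With hIMP1 Dmut against mock, 3 of 16 lay wholly lower (EIF4A3 and 2 RBM8A probe sets) against 11% of all probe sets, and 0 of 16 wholly higher against 12.6%. With hIMP1 wt against mock, 1 of 16 lay wholly lower (UPF2) against 11.6%, and 1 wholly higher (NCBP2 201521_s_at) against 9.72%. Between hIMP1 Dmut and hIMP1 wt, 3 of 16 lay wholly lower (EIF4A3, NCBP2 201521_s_at and RBM8A 217857_s_at) against 8.89%, and 1 wholly higher (NCBP2 201517_at) against 13.1%. Since a single probe set makes up 6.25% of the members, these counts differ from the background by no more than about 2 probe sets.

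More member probe sets lay below mock than above it with hIMP1 Dmut. Of 16 probe sets, 12 had a fitted value below mock and 4 above it, with a median of -0.09, beside a median of 0.01 over all probe sets. Quantile scaling gave 13 below and 3 above, and median scaling 14 and 2. The median was -0.07 between the arrays numbered 1 and -0.12 between those numbered 2. For hIMP1 wt against mock 10 were lower and 6 higher, with a median of -0.02 beside -0.01 for all. This direction turned under median scaling, with 5 lower and 11 higher. Between hIMP1 Dmut and hIMP1 wt, 10 were lower and 6 higher, with a median of -0.03 beside 0.02 for all. The 6 RBM8A probe sets make up much of these counts. With the brightest probe set of each gene alone, the median for hIMP1 Dmut against mock was 0.01 and no longer below 0. With the mean of each gene's probe sets it stayed below 0, at -0.08. Because probe sets of 1 gene share a transcript, these medians carry no test.

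Other factors of the same pathway, from lists written for this work, were read by the brightest probe set of each gene. Among 14 measured factors of nonsense decay, 8 at the periphery of the exon junction complex and 7 of the nuclear cap and its exchange, 0 were called by limma in any comparison of constructs and 0 had an unadjusted p under 0.05. Their median differences for hIMP1 Dmut against mock were -0.02, 0.07 and 0.04, in that order, beside 0.01 for all probe sets. For hIMP1 wt against mock they were 0.05, 0.07 and 0.07, beside -0.01. UPF3A, SMG1, SMG6, DDX39B and NXF1 had no probe set with a single symbol above the filter.

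The genes of smallest p in each list are named with their values, none of which passed the threshold. PYM1, which strips exon junction cores from mRNA on the ribosome, averaged 187 with hIMP1 Dmut, 205 with hIMP1 wt and 141 with mock, a difference from mock of 0.38 ± 0.25 for hIMP1 Dmut and 0.49 ± 0.25 for hIMP1 wt. A second PYM1 probe set had the opposite sign for hIMP1 Dmut. CWC22, the spliceosome protein that delivers EIF4A3, differed from mock by 0.16 ± 0.20 for hIMP1 Dmut and by 0.39 ± 0.20 for hIMP1 wt, and between hIMP1 Dmut and hIMP1 wt by -0.23 ± 0.20. DCP1A, a decapping cofactor, lay above mock by 0.30 ± 0.21 with hIMP1 Dmut and 0.33 ± 0.21 with hIMP1 wt. The mock arrays are shared by both comparisons with mock.

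Further genes had smaller or less precise differences. For hIMP1 Dmut against mock these were ALYREF, an mRNA export adaptor (-0.18), RUVBL2, a helicase that supports the kinase SMG1 (-0.18, with 1 of 3 probe sets opposite), and GSPT2, a release factor (0.15). In the cap list they were PHAX, an export adaptor of small nuclear RNAs (0.29), NCBP3 (0.18, with 3 of 5 probe sets opposite) and SRRT, known as ARS2 (-0.16). For hIMP1 wt against mock they were DHX34 (-0.37 ± 0.37), RUVBL1 (0.17), ACIN1 (0.11), EIF4E (0.19), NCBP3 (0.15) and EIF4G1 (0.11). The sign was opposite in 1 of 2 DHX34, 2 of 4 EIF4E and 3 of 5 NCBP3 probe sets. Between hIMP1 Dmut and hIMP1 wt they were the exonuclease XRN1 (-0.31 ± 0.23), SMG5 (-0.27 ± 0.22), RUVBL1 (-0.18), ALYREF (-0.15), SAP18 (-0.13), PHAX (0.22), EIF4E (-0.17) and CTIF (-0.12). In this comparison 1 of 2 SMG5, 1 of 4 XRN1 and 1 of 4 EIF4E probe sets had the opposite sign. Each of these differences was under 2 of its own standard errors.

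RNAs known as substrates of nonsense decay were read as well. Their levels depend on synthesis as well as on decay, and neither rate was measured. Of 14 listed, 12 were measured, and 0 were called or had an unadjusted p under 0.05 in any comparison of constructs (limma). For hIMP1 Dmut against mock, differences ran from -0.18 ± 0.17 for TBL2 to 0.34 ± 0.38 for ATF3, with a median of -0.03. GADD45B was at 0.34 ± 0.33 and SLC7A11 at 0.23 ± 0.34. For hIMP1 wt against mock they ran from -0.13 for ZFAS1 (1 of 4 probe sets opposite) to 0.26 for DDIT3, with a median of 0.03. GAS5, a snoRNA host transcript, differed from mock by -0.04 ± 0.35 with hIMP1 Dmut and by 0.17 ± 0.35 with hIMP1 wt. Its probe set was dim, with group averages of 43.1 to 49.9. The remaining targets, ATF4, CARS1, GADD45A, NAT9 and UPP1, lay between -0.09 and 0.08 in both comparisons. Between hIMP1 Dmut and hIMP1 wt the range was -0.22 for DDIT3 to 0.29 for GADD45B, with a median of -0.06. SNHG1 and SNHG12 had no probe set with a single symbol above the filter.

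**Figure D3:**
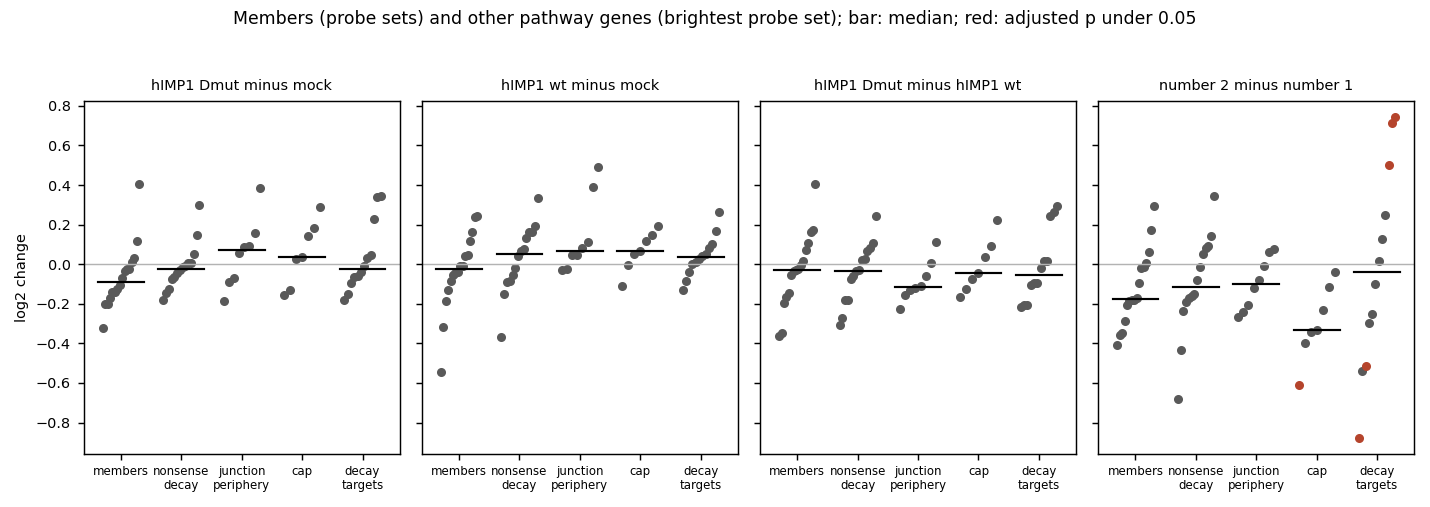
Log2 change of the 16 member probe sets and of the genes of the other lists in hIMP1 Dmut minus mock, hIMP1 wt minus mock, hIMP1 Dmut minus hIMP1 wt and number 2 minus number 1, with bars at the median and red points where limma's adjusted p is under 0.05. Red points appear only in the last panel, for 1 cap gene and 5 decay targets.

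The smallest unadjusted p of a member by limma was 0.0159 between array numbers, against 0.118 between constructs. These come from unlike fits, with a median standard error of the members of 0.14 and 0.23. They therefore do not rank the number against the construct. In a fit with group as a covariate, arrays numbered 2 were set against arrays numbered 1, with 3 arrays on each side. By limma 0 of 16 members were called, against 5.71% of all probe sets, and 2 of 16 had an unadjusted p under 0.05, against 22.3%. The members were thus called no more often than other probe sets. On the arrays numbered 2, 3 of 16 lay wholly lower, against 14.8% of all, and 0 of 16 wholly higher, against 14.5%. Of the 16, 12 were lower and 4 higher, with a median of -0.17 beside -0.01 for all probe sets. With arrays scaled to equal medians the counts were 9 and 7, with a median of -0.07 beside 0.09 for all. The member median was -0.17 within hIMP1 Dmut, -0.10 within hIMP1 wt and -0.21 within mock.

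The 3 that lay wholly lower were NCBP1 209520_s_at and both UPF1 probe sets. NCBP1 averaged 321 ± 3.38 on the arrays numbered 2 and 410.2 ± 10.7 on the arrays numbered 1 (SD, n = 3), a difference of -0.35 ± 0.12 (limma, adjusted p = 0.124). It recurred at -0.33 within hIMP1 Dmut, -0.37 within hIMP1 wt and -0.34 within mock. The second NCBP1 probe set, 209519_at, differed by -0.18 ± 0.28 and overlapped between numbers. Its difference was 0.20 within hIMP1 Dmut, -0.14 within hIMP1 wt and -0.60 within mock. UPF1 208947_s_at averaged 142 ± 16.9 on the arrays numbered 2 and 185 ± 30.9 on the arrays numbered 1, a difference of -0.36 ± 0.16 (limma, adjusted p = 0.204). UPF1 211168_s_at averaged 203 ± 4.75 against 249.7 ± 16.6, a difference of -0.29 ± 0.14 (limma, adjusted p = 0.256). The probe set of CASC3 and MIR6866 followed the same pattern, with 574 ± 41.3 on the arrays numbered 2 and 734 ± 83.2 on the arrays numbered 1, a difference of -0.35 ± 0.11 (limma, adjusted p = 0.0967). Under median scaling the 4 wholly lower probe sets differed by -0.24 for NCBP1 209520_s_at, -0.26 and -0.18 for UPF1 and -0.24 for the CASC3 probe set. EIF4A3 differed by -0.02 ± 0.11 between numbers. Since each construct has 1 array of each number, the comparisons of constructs are balanced for it. What the number stands for is not given by the labels, and its part in any result was not tested.

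**Figure D4:**
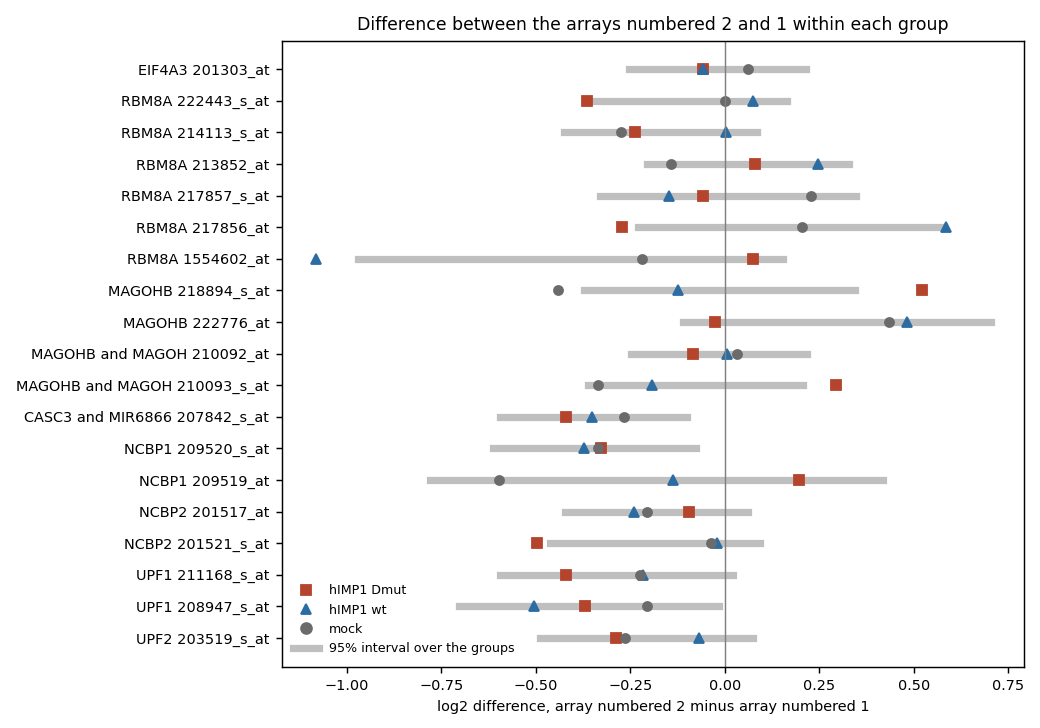
Difference in log2(intensity + 9.048) between the arrays numbered 2 and 1 for each member probe set and the probe sets with a second symbol, within hIMP1 Dmut (squares), hIMP1 wt (triangles) and mock (circles), over the 95% interval of the fit. All 3 symbols lie left of 0 for NCBP1 209520_s_at, both UPF1 and both NCBP2 probe sets, UPF2, and the probe set of CASC3 and MIR6866.

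Around the members, the genes of the cap list were lower on the arrays numbered 2 in 7 of 7 cases (6 of 7 under median scaling), with a median of -0.33, and 4 of them had an unadjusted p under 0.05. ZC3H18, which links the cap-binding complex to RNA decay, fell to 165 ± 16.3 on the arrays numbered 2, against 256 ± 11.9 on the arrays numbered 1 (SD, n = 3). The difference was -0.61 ± 0.15 (limma, adjusted p = 0.0354). By brightest probe set it was the only called gene of that list. SRRT followed at -0.40 ± 0.11 (limma, adjusted p = 0.0624) and EIF4G1 at -0.34 ± 0.11 (limma, adjusted p = 0.0986). The nonsense-decay and periphery lists had 0 calls, with 2 of 14 (DHX34 and SMG9) and 1 of 8 (RNPS1) at an unadjusted p under 0.05, all lower. All probe sets reached 22.3% at that level.

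The decay targets split by number in both directions. Of 12 measured, 3 were called higher and 2 lower, against 5.71% of all probe sets called. At an unadjusted p under 0.05, 3 were higher and 4 lower, against 22.3% of all probe sets. SLC7A11 (a cystine transporter), DDIT3 and ATF4 (transcription factors of the stress response) were higher on the arrays numbered 2. ATF4 averaged 8180.1 ± 639 there and 5783 ± 573 on the arrays numbered 1 (SD, n = 3), a difference of 0.50 ± 0.13 (limma, adjusted p = 0.0455). DDIT3 differed by 0.71 ± 0.16 and SLC7A11 by 0.74 ± 0.12, though 1 of 3 SLC7A11 probe sets had the opposite sign. ATF3 and GADD45A, also stress-response genes, were lower. ATF3 averaged 1126 ± 197 on the arrays numbered 2 and 2058 ± 159 on the arrays numbered 1, a difference of -0.88 ± 0.11 (limma, adjusted p = 0.00246), and GADD45A differed by -0.52 ± 0.12. The remaining 7 targets were not called, with differences from -0.54 for GADD45B to 0.25 for GAS5. The list's median was -0.04, beside -0.01 for all probe sets. Some of these 6 calls did not hold with an array left out. Leaving out 1 array of a group removes that group's difference between numbers, so the other groups alone carry the fit. Such a fit also rests on fewer arrays, so a lost call does not show that the call depended on that group. Without a mock array, ZC3H18 stood at -0.52, ATF4 at 0.37, GADD45A at -0.38, DDIT3 at 0.46 and SLC7A11 at 0.61, and none of the 5 was called. Without an hIMP1 wt array, ZC3H18 stood at -0.67, ATF4 at 0.50 and GADD45A at -0.56, again without a call. ATF3 was called with each of the 6 arrays left out.

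Across the 6 arrays, the genes whose profile was most like that of EIF4A3 were DLL3 (r = 0.993), GPRC5C (r = 0.987) and KCTD10 (r = 0.984), among 23101 probe sets with a single symbol. Those most like UPF1 211168_s_at were ANKLE2 (r = 0.998), ARL16 (r = 0.997) and POLR3C (r = 0.996). Correlations above 0.95 were reached by 28 probe sets for EIF4A3 and by 187 for UPF1. With 6 arrays that share scaling and array number, these values only describe the profiles.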

How the data were processed

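Each array came with 1 linear intensity per probe set, as deposited. How the authors computed and scaled these is not given in the sources used here. The trimmed mean of the deposited intensities was 150.02 on every array. Groups were taken from the sample descriptions and numbers from the titles. The 62 control probe sets were left out of 54675. Symbols came from the platform's annotation table, and probe sets with several symbols (1801) were not counted for a gene.

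Values were used as log2(intensity + 9.048), the constant being the pooled lower quartile. The 27307 probe sets whose mean log2 value reached the median of all such means (5.186) were tested with limma 3.58.1 in R 4.3.3, by lmFit and eBayes with an intensity trend. A single fit of all 6 arrays with a coefficient per group had 3 residual and 7.032 prior degrees of freedom. The comparison of array numbers had group as a covariate, with 2 and 10.49. P-values are two-sided and were adjusted by Benjamini-Hochberg over all tested probe sets, with a threshold of 0.05. A log2 change of 0.625 would reach an unadjusted p of 0.05 at the median standard error. The fit was tested on simulated data.

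Named were all member probe sets, the 3 genes of smallest p per list and comparison, all decay targets, the 3 profiles most like EIF4A3 and UPF1, and IGF2BP1. The members and lists were chosen with earlier results of these data known. HSPA6, which lies outside that rule, was named after its values were seen. Alternatives were 2 other scalings, 2 other constants, 2 other filters, no trend, a robust fit, the number as block, a fit of only the 4 arrays compared, 1 value per gene, and each array left out. Counting the probe sets with several symbols, and the alternatives for HSPA6 and the 6 pathway genes called by brightest probe set, were added after seeing the data. Promoters came from RefSeq, assembly GRCh38.p14.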

Additional observations from a re-analysis of the deposited data

How the results depend on the processing

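The count of members called stayed at 0 under all 16 alternatives for each comparison of constructs and under all 14 for array numbers (limma, with 0 to 1 and 0 to 6 members at an unadjusted p under 0.05), and the lowest adjusted p was 0.0535, between numbers without hIMP1 Dmut replicate 2. The 2 numbers cannot establish pairing, since the labels do not say what they share. Deviations of same-numbered arrays correlated at 0.464 between hIMP1 wt and mock, 0.200 between hIMP1 Dmut and mock and 0.217 between hIMP1 Dmut and hIMP1 wt, and with the replicate block 0 members were called. The block cannot move a fitted difference or a median, since each group holds 1 array of each number.

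Median scaling moved the member medians to -0.159 for hIMP1 Dmut against mock, 0.0293 for hIMP1 wt against mock, -0.146 for hIMP1 Dmut against hIMP1 wt and -0.0678 for number 2 against 1. It shifted the median of all probe sets by -0.12 in the third of these and by 0.10 in the fourth, and relative to all probe sets the members stood at -0.0435 and -0.154, against -0.0469 and -0.16 as deposited. The mean of each gene's probe sets gave 0.0391 for hIMP1 wt against mock and -0.0843 for hIMP1 Dmut against mock. The brightest probe set of each gene gave -0.0076 and 0.0131 in that order. Leaving out each array gave medians of -0.154 to -0.0189 for hIMP1 Dmut against mock, -0.136 to 0.0627 for hIMP1 wt against mock and -0.139 to 0.0277 for hIMP1 Dmut against hIMP1 wt.

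Among differences of single genes 41 turned direction, all far from the threshold. They turned under scalings and left-out arrays, while the filters, trend, robust fit, block, 4-array fit and the leaving out of an array of the uncompared group cannot move a difference between constructs. For hIMP1 Dmut against mock, NCBP1 turned to -0.00502 under quantile and -0.0565 under median scaling and UPF1 to -0.0354 under median scaling, and leaving out arrays gave NCBP1 -0.155 to 0.181 and UPF1 -0.177 to 0.243. For hIMP1 wt against mock, median scaling turned NCBP2 to 0.00190, RBM8A to 0.0502 and UPF1 to 0.0152, and leaving out arrays gave NCBP1 -0.138 to 0.235, NCBP2 -0.176 to 0.0651, RBM8A -0.0454 to 0.0302 and UPF1 -0.154 to 0.0719. For hIMP1 Dmut against hIMP1 wt, UPF2 turned to -0.00533 under quantile and -0.111 under median scaling and UPF1 to -0.0505 under median scaling, and leaving out arrays gave MAGOHB -0.0968 to 0.424, NCBP1 -0.222 to 0.151, UPF1 -0.136 to 0.284 and UPF2 -0.128 to 0.158. For number 2 against 1, MAGOHB turned to 0.00457 under quantile and 0.0909 under median scaling, EIF4A3 to 0.0893 and RBM8A to 0.0122 under median scaling, and leaving out arrays gave EIF4A3 -0.0587 to 0.000985, MAGOHB -0.283 to 0.198 and RBM8A -0.182 to 0.0387. The cause was not tested.

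Over all probe sets, the comparison of numbers called 1558, but 0 without the intensity trend (5076 at an unadjusted p under 0.05), 558 without the filter and 291 to 5472 with an array left out. The calls of ZC3H18, ATF4 and GADD45A held in 7 of 14 alternatives each, DDIT3 in 10, SLC7A11 in 11 and ATF3 in 13. Calls for hIMP1 Dmut against mock numbered 0 to 2 and for hIMP1 wt against mock 0 to 3. For HSPA6, 117_at was called in 12 of 15 and 11 of 15 alternatives and 213418_at in 13 of 16 and 11 of 16. All of these calls were lost without the intensity trend. For hIMP1 wt against mock, both probe sets also lost their call when only the 4 arrays compared were fitted. In that comparison 213418_at lost it with the constant at the 10th percentile as well. The calls of HSPA6 against mock, for hIMP1 Dmut and for hIMP1 wt alike, were also lost without either hIMP1 Dmut array. Above the 75th percentile only 13 members were tested.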
